A study of Mus musculus with 16 samples.

Results

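The miRNAs of polar and mural fragments were compared in mouse blastocysts that had been paused by inhibition of mTOR, the kinase through which nutrients set the rate of growth. The comparison took the 3 polar and the 3 mural libraries whose treatment label names this pause (mTORi below), 6 of the 16 libraries of the series, and all 1978 mature miRNA names in their count tables. A laser cut each blastocyst into a piece that contains the inner cell mass (polar) and a piece of mural trophectoderm, the epithelium around the cavity. The other libraries served only to set the mTORi difference between the parts beside that of WT blastocysts at embryonic day 4.5 (n = 2 libraries per part) and of blastocysts diapaused in vivo, that is, arrested before implantation, at EDG 7.5 (n = 3 per part). For the mTORi blastocysts the labels give no day, inhibitor, dose or duration, so age and inhibitor cannot be told apart when they are set against WT or diapaused ones. No strain or number of embryos per library is given either, nor whether a polar and a mural library with the same number came from the same embryos, so the p-values measure the spread between these samples. In the titles of the mural mTORi samples (3 libraries) no part is named and the word diapaused appears, while their tissue label, treatment label and column header say mural and mTORi, which was followed. Polar replicate 3 stood apart from the other 5 libraries, so results that rest on it are given with it and without it.

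miRNAs are short RNAs that bind messenger RNAs mainly through a seed, bases 2 to 8 from their 5′ end, and lower their translation or stability, and miRNAs with the same seed share most of their predicted targets. Many are made from clusters transcribed together. The miR-290/miR-295 cluster dominates mouse pluripotent cells and early trophoblast, the X-linked miR-322/miR-503 cluster is known for restraint of the cell cycle, and the imprinted Dlk1-Dio3 cluster is expressed from the maternal chromosome. miR-10b lies among the Hox genes, and miR-203 is best known from the upper layers of stratified epithelium.

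The mature sequences on which the comparison turns are shown with the seed in capitals, 5′ to 3′, from RefSeq on GRCm38.p6, in which 89 of the 102 tested miRNAs had an entry. The first 2 come from the Dlk1-Dio3 cluster, and the 3 after them share the seed CAGUGCA and differ in the rest.
miR-379-5p: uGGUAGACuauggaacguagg
miR-127-3p: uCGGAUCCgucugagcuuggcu
miR-152-3p: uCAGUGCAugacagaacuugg
miR-148a-3p: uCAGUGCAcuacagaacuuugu
miR-148b-3p: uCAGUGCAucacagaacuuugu
miR-2137: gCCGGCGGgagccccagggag
The next 2 share the seed ACCCUGU. They are followed by miR-322-5p and miR-15b-5p, which share AGCAGCA, and by the 2 arms of miR-503.
miR-10b-5p: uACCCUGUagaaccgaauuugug
miR-10a-5p: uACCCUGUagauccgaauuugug
miR-322-5p: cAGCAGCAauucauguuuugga
miR-15b-5p: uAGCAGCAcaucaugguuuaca
miR-503-5p: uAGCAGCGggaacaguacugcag
miR-503-3p: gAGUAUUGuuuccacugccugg
The last 4 are miR-351-5p of the same X-linked cluster, miR-125a-5p, which has its seed, and the 2 epithelial miRNAs that were abundant in polar replicate 3.
miR-351-5p: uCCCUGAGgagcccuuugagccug
miR-125a-5p: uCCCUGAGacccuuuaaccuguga
miR-203-3p: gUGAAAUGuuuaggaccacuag
miR-205-5p: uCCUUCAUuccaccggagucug

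The libraries were shallow, with 3061, 2184 and 3501 miRNA counts in polar replicates 1 to 3 and 4386, 3613 and 3490 in the mural ones. A count of 0 in all 3 libraries of a group allows up to 377 CPM (scaled counts per 1000000) in polar and 276 in mural fragments, taking 3 counts over the group as the limit, which covers counting error only. A count was found in at least 1 mTORi library for 283 names: 162 in both parts, 76 in polar libraries alone (205 counts together) and 45 in mural libraries alone (105 counts). Of these, 182 were too low to be tested, none with more than 23 counts over the 6 libraries. Across the 102 tested miRNAs, the levels of mural replicates ranked alike (Spearman's rho of 0.88 to 0.91 between libraries). Polar replicate 3 ranked less like polar replicates 1 and 2 (0.72 and 0.62) than these like each other (0.80). Between parts, rho with the mural libraries was 0.83 to 0.84 for polar replicate 1, 0.72 to 0.78 for replicate 2 and 0.67 to 0.74 for replicate 3. By rank the polar libraries thus formed no group apart from the mural ones. These coefficients are over miRNAs, which are not independent, and describe the libraries only.

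Polar and mural fragments differed in few miRNAs at this depth. In polar fragments miR-379-5p, miR-152-3p and miR-203-3p were higher and miR-10b-5p and miR-322-5p were lower, 5 of 102 tested miRNAs (4.9% called, 2.94% higher and 1.96% lower), where called means an edgeR adjusted p under 0.05. Without polar replicate 3 the calls were 3 of 106 (2.83%): miR-379-5p and miR-2137 higher (1.89%) and miR-503-3p lower (0.943%). Only miR-379-5p was called in both fits. In these bulk fragments, fewer cells of a type and less RNA per cell cannot be told apart. All calls were lost when mural mTORi replicate 1, 2 or 3, or polar diapaused replicate 2, was left out (0 calls in each of these edgeR fits, with 16 to 22 at an unadjusted p under 0.05 against 19 with all libraries). Leaving out polar diapaused replicate 1 or 3 left 1 call and leaving out mural diapaused replicate 1 left 2. These fits share 1 estimate of spread over all libraries.

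**Figure D1:**
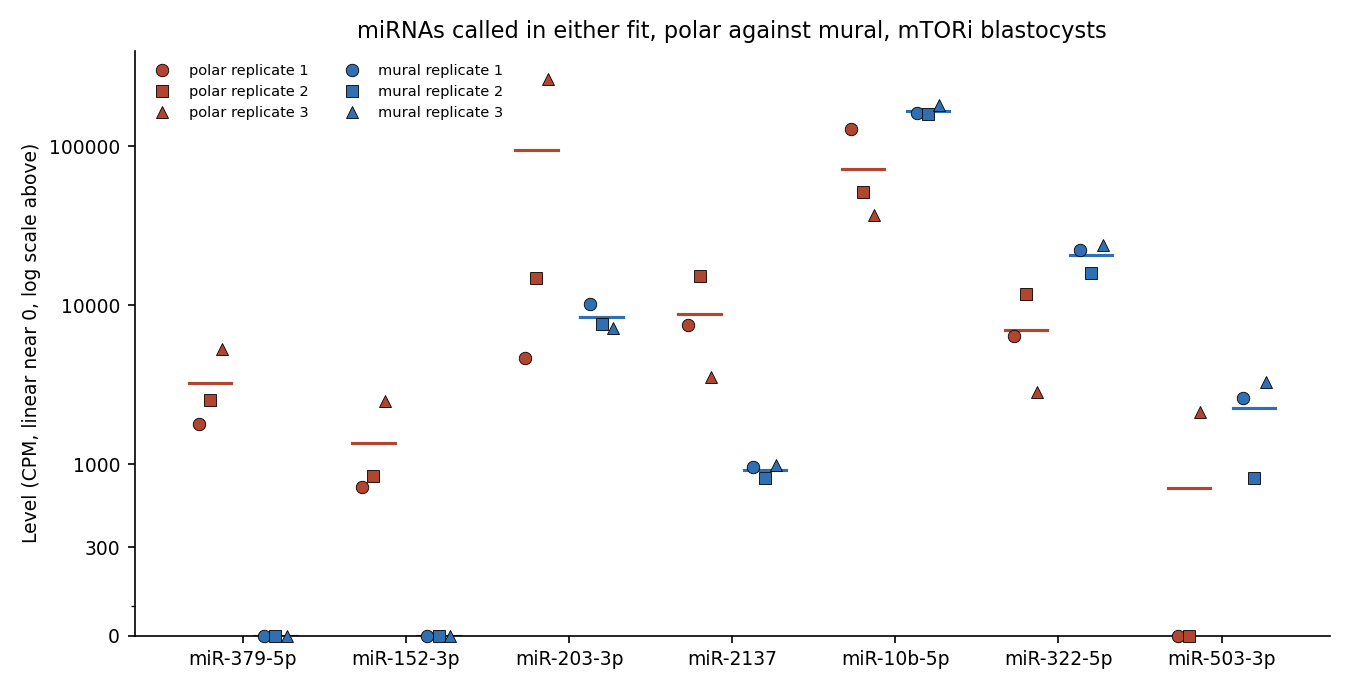
Level in CPM (vertical axis, linear near 0 and logarithmic above) of the 7 miRNAs called with all libraries or without polar replicate 3, in the 3 polar (red) and 3 mural (blue) mTORi libraries; bars are group means. miR-379-5p and miR-152-3p are at 0 in every mural library, and the miR-203-3p bar of the polar group is carried by replicate 3 at 266465 CPM.

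The Dlk1-Dio3 cluster, a long maternally expressed row of miRNAs on chromosome 12, was found almost solely in polar fragments. Its counts were 15, 28 and 37 in polar replicates 1 to 3 and 2, 1 and 0 in the mural ones, or 0.490%, 1.28% and 1.06% of polar libraries against at most 0.0456% of mural ones. Every polar library lay above every mural library. Of the 16 names with a count, 14 had counts in polar libraries alone, 1 (miR-410-3p, 1 count) in a mural library alone and 1 (miR-434-3p, 6 counts against 2) in both. Over all miRNAs, 76 of 283 names were found in polar libraries alone and 45 in mural libraries alone. Among the 14, miR-299a-5p, miR-376b-3p, miR-381-3p and miR-431-5p rested on 1 count each. The names in this paragraph were chosen after their values were seen.

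Of the 4 members of the cluster deep enough to test, 1 was called and all 4 had no mural count. They passed the filter through their counts in polar libraries, so that all 4 lay on this side is no support of its own. miR-379-5p, the first of a long run of miRNAs in the cluster (hairpin at chr12:109709060-109709125, plus strand, in no annotated gene), had 5, 6 and 15 counts in polar replicates 1 to 3 and 0 in each mural library. Polar levels were 1788, 2538 and 5344 CPM, highest in replicate 3, with no overlap. This puts it at a level at least 11.8-fold higher in polar than in mural fragments (edgeR adjusted p = 0.0241), and at least 7.73-fold higher without polar replicate 3 (adjusted p = 0.0365). In mural WT and mural diapaused libraries miR-379-5p was likewise at 0 counts, while polar libraries held 4 and 7 counts in WT and 15, 16 and 30 in diapaused blastocysts.

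miR-127-3p, antisense to the Rtl1 gene that it can cleave (chr12:109592846-109592915, plus strand), had 3, 7 and 1 polar counts. It was highest in replicate 2, and the groups did not overlap. The bound is at least 5.0-fold (adjusted p = 0.0963), or at least 7.02-fold without polar replicate 3 (adjusted p = 0.117). miR-541-5p, from an intron of the noncoding RNA Mirg (chr12:109742409-109742498), had 4, 0 and 7 counts, so the groups met at 0 (adjusted p = 0.0963). miR-409-3p, from another intron of Mirg (chr12:109743158-109743236), had its 6 counts in polar replicate 2 alone (adjusted p = 0.294). With members that have no mural count set at their bounds, the median log2 difference of the 4 was 2.32. Since the filter kept them for their polar counts, this median cannot be set against that of all tested miRNAs.

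miR-148a, miR-148b and miR-152 form a family with 1 seed that is known to act on the DNA methyltransferase Dnmt1. Their summed level was 42920, 34681 and 34911 CPM in polar and 24107, 20314 and 28606 in mural replicates 1 to 3. The lowest polar library was above the highest mural one. Of the 3 members tested, 1 was called with all libraries and 0 without polar replicate 3, and the median log2 difference was 1.33 and 1.38. Both the call and the median include miR-152-3p, which passed the filter through its counts in polar libraries. That it lay on this side is therefore no support of its own.

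miR-152-3p (chr11:96850393-96850465, plus strand, in an intron of the coatomer gene Copz2) had 2, 2 and 7 polar counts and no mural count. Polar replicate 3 held most of them. The filter kept it for its polar counts, which were 24, 33 and 36 in diapaused libraries against 1, 2 and 2 in mural diapaused ones. Polar fragments had at least 5.0-fold more (edgeR adjusted p = 0.0447), and without polar replicate 3 the bound was 2.81-fold and the call was lost (adjusted p = 0.117).

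miR-148b-3p (chr15:103285125-103285221, in an intron of Copz1) was at 4292, 2115 and 3206 CPM in polar and 1671, 1098 and 986 in mural replicates. The groups did not overlap, but the log2 difference of 1.33 (SE 0.49) missed the threshold (edgeR adjusted p = 0.119). miR-148a-3p, the most abundant of the family (chr6:51269812-51269910, in no annotated gene), was at 37913, 31720 and 29211 CPM in polar and 22436, 19216 and 27619 in mural fragments. The lowest polar value was just above the highest mural one, and the log2 difference was 0.51 (SE 0.23, edgeR adjusted p = 0.225), or 0.64 (SE 0.23, adjusted p = 0.125) without polar replicate 3. DESeq2 called miR-148a-3p, and not miR-148b-3p.

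miR-2137 (chrX:72992079-72992144, plus strand, in an intron of Zfp185) had 21, 36 and 10 counts in polar replicates and 4, 3 and 3 in mural ones, or 7511, 15226 and 3562 CPM against 955, 824 and 986. Every polar library was above every mural library, and replicate 3 was the lowest polar one. The log2 difference was 3.21 (SE 0.93) with an edgeR adjusted p of 0.0512. It passed the threshold without polar replicate 3 (3.62, SE 0.93, adjusted p = 0.0365) and with the replicate number as a block (3.12, SE 0.60, adjusted p = 0.00345). Without polar replicate 2, its highest library, the difference was 2.26 (SE 0.98, adjusted p = 0.187). Its level varied in WT libraries too, from 2595 to 17707 CPM in polar and from 467 to 7295 in mural fragments.

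In the other direction, miR-10b-5p was the most abundant miRNA to differ. Its hairpin lies at chr2:74726070-74726137, plus strand, in introns of Hoxd3 and Hoxd4. It was at 129118, 51598 and 37049 CPM in polar and at 161350, 160312 and 182157 in mural replicates. All polar libraries were below all mural ones, but polar replicate 1 was far above the other 2, while the mural libraries lay close together. The level was 2.31-fold lower in polar fragments (log2 -1.21, SE 0.34, edgeR adjusted p = 0.0473). Without polar replicate 3 the difference was -0.84 (SE 0.30) and not called (adjusted p = 0.125), without polar replicate 1 it was -1.95 (SE 0.26, adjusted p = 9.32e-05), and without polar replicate 2 it was -1.28 (SE 0.38) and not called (adjusted p = 0.0507). miR-10a-5p, which has its seed, was at 3577, 5075 and 2494 CPM in polar and 4058, 10431 and 5590 in mural replicates, with overlap (log2 -0.86, SE 0.63, adjusted p = 0.457). Together they made up 12.1%, 6.14% and 3.17% of the counts of polar libraries and 15.8%, 17.2% and 16.4% of mural ones.

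The miR-322/miR-503 cluster took 1.40%, 1.97% and 0.686% of polar counts and 3.44%, 2.63% and 2.98% of mural counts. All polar libraries lay below all mural ones. Of its 5 tested members 1 was called lower with all libraries (miR-322-5p) and 1 without polar replicate 3 (miR-503-3p). The median log2 difference of the 5 was -1.36 and -0.96.

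miR-322-5p, known to target Cdc25a and cyclins (chrX:53054255-53054349, minus strand, in no annotated gene), was at 6438, 11842 and 2850 CPM in polar and 22436, 15921 and 24003 in mural replicates. The groups did not overlap, and polar replicate 3 was the lowest. It was 2.98-fold lower in polar fragments (log2 -1.57, SE 0.44, edgeR adjusted p = 0.0473), and without polar replicate 3 the difference was -1.16 (SE 0.39) and not called (adjusted p = 0.117). Without polar replicate 1 it was -1.54 (SE 0.50) and not called (adjusted p = 0.0751), and without polar replicate 2 it was -2.46 (SE 0.49, adjusted p = 0.00691).

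The other arm of the hairpin, miR-322-3p, was at 1788, 2961 and 712 CPM in polar and 5251, 5490 and 2959 in mural replicates. Its polar replicate 2 met mural replicate 3 (log2 -1.36, SE 0.56, edgeR adjusted p = 0.183). miR-503-3p (chrX:53053984-53054054, minus strand) had 0, 0 and 6 polar and 11, 3 and 10 mural counts. Its 6 polar counts were all in replicate 3, so that without this library polar fragments had at least 3.80-fold less (adjusted p = 0.0365), and with it the log2 difference was -1.56 (SE 0.88, adjusted p = 0.325).

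miR-503-5p, from the same hairpin, had 14, 0 and 2 polar and 15, 9 and 5 mural counts, with overlap (log2 -0.41, SE 0.82, edgeR adjusted p = 0.878). miR-351-5p did not follow miR-322-5p. It was at 2146, 2961 and 1781 CPM in polar and 1671, 1373 and 2302 in mural replicates, a log2 difference of 0.37 (SE 0.59, adjusted p = 0.866), with overlapping groups.

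miR-203-3p (chr12:112130880-112130955, plus strand, in no annotated gene) was called higher in polar fragments on 1 library. It had 13, 35 and 748 counts in polar and 43, 28 and 22 in mural replicates, or 4650, 14803 and 266465 CPM against 10263, 7686 and 7234. Polar replicate 1 was below all 3 mural libraries, so the groups overlapped. With all libraries the log2 difference was 3.50 (SE 0.92, edgeR adjusted p = 0.0466). Without polar replicate 3 it was 0.20 (SE 0.45, adjusted p = 0.919), and with the replicate number as a block it was 1.67 (SE 0.75, adjusted p = 0.20).

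Other miRNAs stood out in the same library. Of 47 names with at least 10 counts in polar replicate 3, 7 had a share at least 4 times that in both other polar libraries, and all 7 were also above the 5 other mTORi libraries, a rule chosen after the data were seen. They made up 33.9% of its counts. miR-203-3p held 21.4% of that library (exact 95% interval 20.0% to 22.8%), against at most 1.60% elsewhere in mTORi. miR-205-5p, another miRNA of stratified epithelium, held 4.46% (3.80% to 5.19%) against at most 0.430%. miR-21a-5p held 3.63%, let-7b-5p 2.77%, miR-22-3p 0.743%, miR-222-3p 0.543% and miR-23b-3p 0.371%.

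The list of stratified epithelial miRNAs (miR-203 and miR-205, 3 of 4 arms with a count) held 0.719%, 1.83% and 25.8% in polar and 1.28%, 0.996% and 1.06% in mural replicates. With miR-203-3p alone left out, edgeR called 5 of 101 miRNAs between the parts: miR-379-5p, miR-152-3p, miR-10b-5p, miR-322-5p and miR-2137. The part of the whole list in the other results of polar replicate 3 was not tested. Leaving out that library lowered the log2 difference by more than 1 for 12 of 102 miRNAs and raised it by more than 1 for 0, and the sign changed for 24. The largest drops among miRNAs with counts in the other polar libraries were those of miR-203-3p and of miR-205-5p, from 2.67 (SE 0.99, edgeR adjusted p = 0.119) to -0.18. miR-22-3p went from -0.04 to -1.74 (SE 0.57, adjusted p = 0.117), since its polar counts were 4, 2 and 26 against 14, 13 and 16 in mural replicates.

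**Figure D2:**
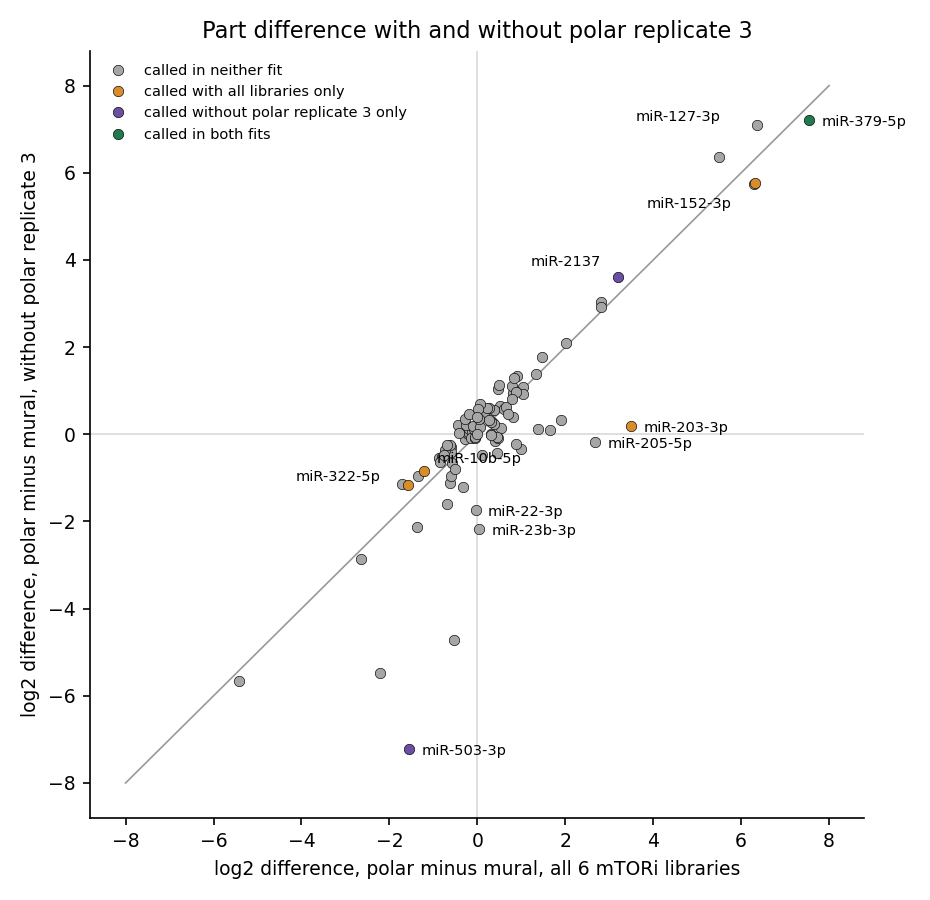
log2 difference between polar and mural mTORi fragments for the 102 tested miRNAs with all 6 libraries (horizontal axis) and without polar replicate 3 (vertical axis); the grey diagonal marks equal values, and values beyond 5 in size belong to miRNAs with no count in 1 group, whose fitted difference is no bound. miR-379-5p is the 1 miRNA called in both fits, and miR-203-3p and miR-205-5p lie far below the diagonal.

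Apart from the stratified epithelial list, the lists of other cell types held few counts. Erythroid, leukocyte, endothelial, liver, stromal and neural lists each held at most 0.366% of any mTORi library, and the muscle list had no count, which allows up to 0.0343% of polar and 0.0261% of mural counts. miR-302 and miR-367, markers of the epiblast that the polar piece should contain, had 2 counts in polar replicate 2 and none in polar replicates 1 and 3 or in mural fragments. The Sfmbt2 cluster, abundant in trophoblast, was present in both parts, at 1.48% ± 0.695 (SD, n = 3) of polar and 1.59% ± 0.300 (n = 3) of mural counts. The epiblast list was too low to check the labelled parts.

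The miR-290/miR-295 cluster held the largest share of both parts and showed no called difference. It took 41.1%, 43.7% and 27.9% of polar and 42.5%, 40.2% and 40.8% of mural counts, so that polar replicate 3 alone was below the rest. Of 13 tested members 0 were called by edgeR (0 at an unadjusted p under 0.05) or by DESeq2, 4 were above 0 and 9 below, and the median log2 difference was -0.08 (0.02 without polar replicate 3).

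miR-292a-5p, the most abundant miRNA of both parts, was at 194929, 147605 and 116846 CPM in polar and 188798, 155097 and 187418 in mural replicates (log2 -0.21, SE 0.17, edgeR adjusted p = 0.539). miR-294-3p, whose seed AAGUGCU is that of the miRNAs known to speed the G1/S transition of embryonic stem cells, was at 103723, 111232 and 91553 against 106214, 105685 and 113108 CPM (log2 -0.08, SE 0.15, adjusted p = 0.866). Both overlapped between parts. miR-292a-3p (-0.06, SE 0.21) and miR-293-3p (-0.05, SE 0.18) had differences within their errors, and their sign turned with another scaling (0.04 each).

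Further from 0 in this cluster were miR-290a-5p (0.86, SE 0.41, edgeR adjusted p = 0.248), miR-295-5p (0.81, SE 0.48), miR-291a-5p (-0.73, SE 0.38) and miR-293-5p (-0.61, SE 0.31, adjusted p = 0.269). miR-295-5p did not overlap between parts, at 2538 to 5700 CPM in polar and 1973 to 2196 in mural fragments, and neither did miR-293-5p, at 6769 to 10372 against 10431 to 16769. For miR-290a-5p and miR-291a-5p the groups overlapped. Members of the cluster and of the let-7 and Sfmbt2 groups have near-identical copies, between which the counting, not given in the sources used here, could split reads.

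**Figure D3:**
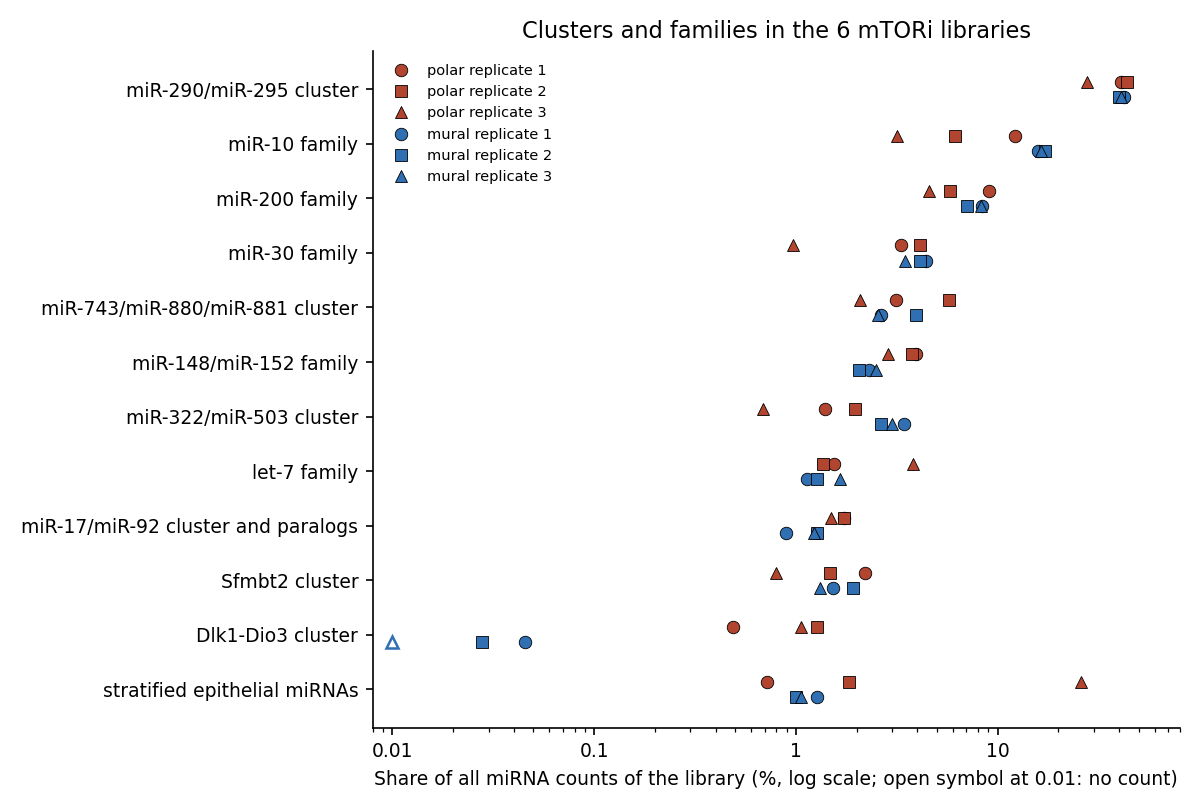
Share of each mTORi library's miRNA counts (horizontal axis, %, logarithmic) held by 12 clusters and families, with polar libraries in red and mural libraries in blue; an open symbol marks no count. The Dlk1-Dio3 cluster, the miR-148/miR-152 family and the miR-17/miR-92 list lie higher in all polar than in all mural libraries. The miR-10 family and the miR-322/miR-503 cluster lie lower, and polar replicate 3 (red triangle) stands out at 25.8% for the stratified epithelial list.

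Without any test threshold, the CPM of 21 of 102 miRNAs (20.6%) did not overlap between the 3 polar and the 3 mural libraries, 14 with polar above mural (13.7%) and 7 with polar below (6.86%). Without polar replicate 3 there were 34 (33.3%), of 2 against 3 libraries. A comparison of 3 against 3 libraries cannot give an exact two-sided permutation p under 0.1, so no such test was made for single values.

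Among those with polar above mural were let-7g-5p, a miRNA of the differentiation-linked let-7 family, at 7869, 4229 and 6056 against 2387, 3569 and 2959 CPM (log2 1.03, SE 0.40, edgeR adjusted p = 0.142). miR-25-3p, of a cluster in the replication gene Mcm7, was at 3219, 2961 and 3919 against 1671, 1922 and 1315 CPM (1.03, SE 0.44, adjusted p = 0.21). miR-141-3p of the miR-200 family, which guards epithelial identity, was at 1788, 1692 and 1781 against 716, 1373 and 986 CPM on 3 to 5 counts per library (0.78, SE 0.69). None of these 3 was called by edgeR or DESeq2.

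Among those with polar below mural was miR-30d-5p, at 15380, 12688 and 6412 against 23152, 18667 and 21701 CPM (log2 -0.88, SE 0.30, edgeR adjusted p = 0.0963). miR-182-5p, of the sensory miR-183 cluster, was at 20029, 22416 and 10331 against 23630, 28549 and 27619 CPM (-0.60, SE 0.28, adjusted p = 0.248), and without polar replicate 3 the difference was -0.30. miR-378a-3p, from the Ppargc1b gene and known from mitochondrial metabolism, was at 10015, 5498 and 4275 against 10741, 12627 and 11179 CPM (-0.80, SE 0.39, adjusted p = 0.255). Polar replicate 3 was the lowest library for all 3. miR-151-5p overlapped between parts, with 3, 0 and 5 polar and 15, 9 and 5 mural counts (-1.38, SE 0.69, adjusted p = 0.268). Without polar replicate 3 its groups did not overlap, and the ratio of polar to mural counts was 0.218 (exact 95% interval 0.0425 to 0.703, on pooled counts). The fit without that library did not call it (-2.13, SE 0.86, edgeR adjusted p = 0.17).

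The miR-30 family, of which edgeR called 0 of 5 tested members (1 at an unadjusted p under 0.05) and DESeq2 called miR-30d-5p, had a median log2 difference of -0.26 (0.21 without polar replicate 3). Its share was 3.33%, 4.12% and 0.971% in polar against 4.42%, 4.12% and 3.47% in mural replicates, with polar replicate 3 far below the rest. miR-30e-5p (-0.63, SE 0.41), miR-30a-5p (0.48, SE 0.72) and miR-30e-3p (-0.26, SE 0.66) overlapped between parts. In the let-7 family edgeR and DESeq2 called 0 of 5 (2 at an unadjusted edgeR p under 0.05). let-7b-5p differed by 1.38 (SE 0.65) with all libraries and by 0.11 without polar replicate 3, and let-7d-5p was at -0.70 (SE 0.65) and let-7e-5p at -0.63 (SE 0.59), with overlap. Neither overlapped between parts without polar replicate 3, with let-7e-5p at -1.12 (SE 0.70) and let-7d-5p at a count ratio of 0.316 (exact 95% interval 0.0601 to 1.07).

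The miR-200 family, of which edgeR and DESeq2 called 0 of 5 (0 at an unadjusted edgeR p under 0.05), had a median of -0.15. miR-200c-3p, its most abundant member, was at 57942, 35950 and 33486 CPM in polar and 52272, 48039 and 55896 in mural replicates (log2 -0.29, SE 0.21, edgeR adjusted p = 0.457). miR-200b-3p differed by -0.13 (SE 0.32) and miR-429-3p by -0.76 (SE 0.82), each with overlap.

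Among miRNAs of the miR-17/miR-92 type, clusters known for promoting proliferation, 0 of 6 tested were called by edgeR or DESeq2 (1 at an unadjusted edgeR p under 0.05) and the median was 0.34. The summed share was nevertheless above that of every mural library in every polar one, at 1.73%, 1.74% and 1.49% against 0.889%, 1.27% and 1.23%. miR-92a-3p differed by 0.61 (SE 0.37), miR-93-5p by 0.66 (SE 0.55) and miR-20a-5p by -0.70 (SE 0.71), with overlap in each.

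The X-linked miR-743/miR-880/miR-881 cluster, known from germ cells, had 0 of 7 tested members called by edgeR or DESeq2 (0 at an unadjusted edgeR p under 0.05) and a median of 0.37. miR-743b-3p (0.91, SE 0.53), miR-880-3p (0.78, SE 0.57), miR-470-5p (0.69, SE 0.65) and miR-871-3p (0.37, SE 0.52) overlapped between parts. The groups of miR-743b-3p did not overlap without polar replicate 3, at 1.34 (SE 0.49, edgeR adjusted p = 0.125). In the Sfmbt2 cluster 0 of 3 were called by edgeR or DESeq2 (0 at an unadjusted edgeR p under 0.05), with miR-669c-5p at 0.25 (SE 0.39), miR-466d-3p at -0.32 (SE 0.45) and miR-466f-3p on 3 polar and 5 mural counts, a count ratio of 0.819 (exact 95% interval 0.127 to 4.21). miR-26b-5p, among the 10 most abundant miRNAs, was at 22175, 14380 and 37405 CPM in polar and 22197, 12902 and 16111 in mural replicates (0.53, SE 0.34, edgeR adjusted p = 0.375), with overlap.

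Grouped by seed, the 89 tested miRNAs with a sequence fell into 65 seeds, of which 14 had 2 or more members. The summed CPM of 5 of these 14 did not overlap between parts (35.7%, against 20.0% of all 65). Tested miRNAs without a sequence, among them miR-30d-5p and miR-30b-5p, were in no group. Sums of families such as miR-30 are therefore incomplete, and the number of groups without overlap could change with them. Above mural were CAGUGCA (miR-148a-3p, miR-148b-3p and miR-152-3p), CCCUGAG (miR-125a-5p and miR-351-5p) and AUUGCAC (miR-25-3p, miR-92a-3p and miR-92b-3p), and below were ACCCUGU (miR-10a-5p and miR-10b-5p) and AGCAGCA (miR-15a-5p, miR-15b-5p and miR-322-5p).

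The members of a seed group did not always lie on the same side. In the AGCAGCA group miR-322-5p was lower in polar fragments while miR-15b-5p, a pro-apoptotic relative, had 3, 7 and 5 polar against 3, 0 and 2 mural counts (log2 2.02, SE 1.18, edgeR adjusted p = 0.325), and the sum followed miR-322-5p. For CCCUGAG the sum was 16453, 13111 and 11756 CPM in polar and 6444, 7961 and 10850 in mural replicates. Most of it was miR-125a-5p, at 14307, 10150 and 9975 against 4774, 6588 and 8549 CPM (0.80, SE 0.41, adjusted p = 0.269). The AUUGCAC sum was 11803, 13111 and 14606 against 5728, 6863 and 10522 CPM. The let-7 seed GAGGUAG overlapped, with polar replicate 3 at 45955 CPM and the other mTORi libraries at 10979 to 17098.

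**Figure D4:**
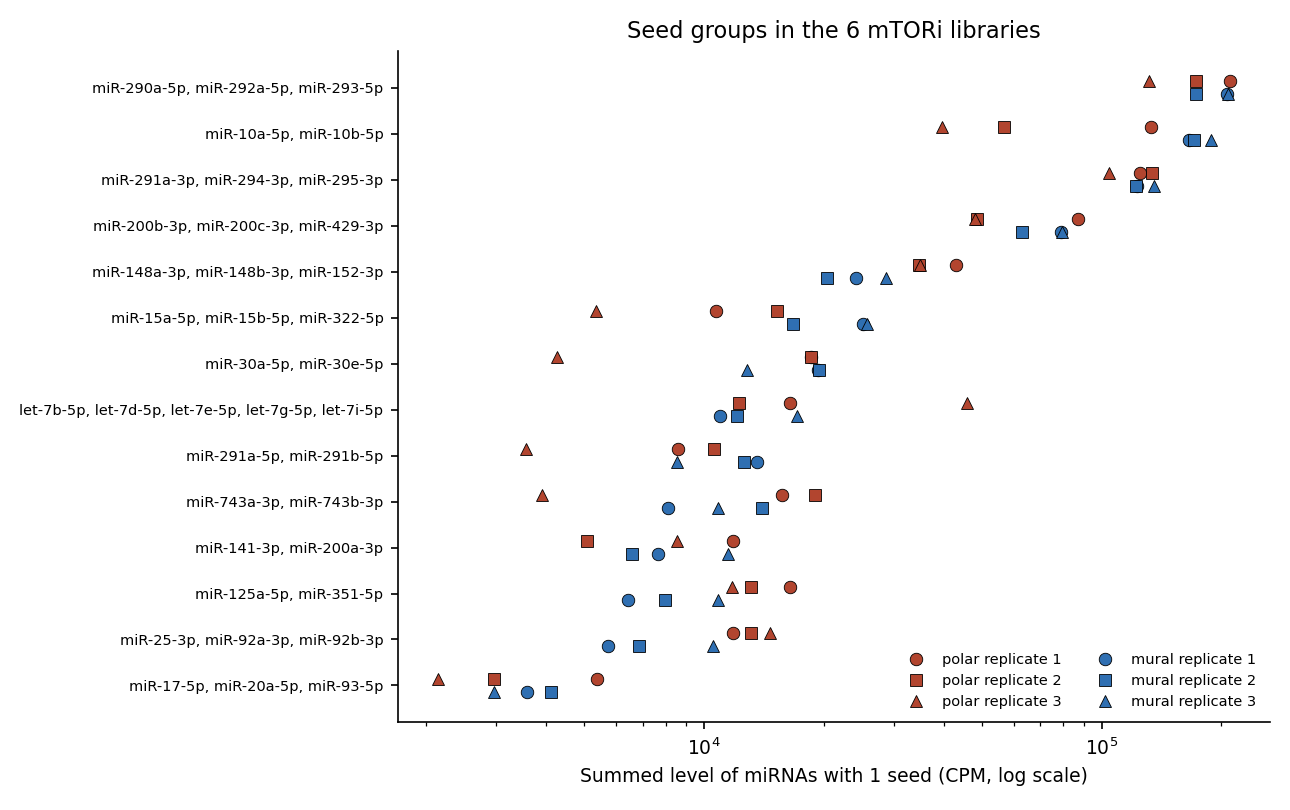
Summed level in CPM (horizontal axis, logarithmic) of tested miRNAs with a RefSeq sequence that share bases 2 to 8, for the 14 groups with at least 2 members, in polar (red) and mural (blue) mTORi libraries. Polar and mural points do not overlap in 5 groups, and polar replicate 3 (red triangle) lies apart in the let-7 group at 45955 CPM.

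The 2 arms of a hairpin were counted separately, and 15 hairpins had at least 30 counts over the 6 libraries with at least 5 from each arm. For 13 of them the share of the 5p arm overlapped between parts. miR-322 gave 79.4% of its counts from the 5p arm in polar fragments (exact 95% interval 67.9% to 88.3%, pooled over libraries) and 81.5% in mural ones (76.4% to 85.9%). miR-200b gave 1 of 141 counts from its 5p arm in polar and 19 of 226 in mural fragments, of which 14 were in mural replicate 3, where the share was 18.2%. miR-293 gave 17.0%, 19.3% and 11.9% from its 5p arm in polar and 20.1%, 19.4% and 25.4% in mural replicates, so that replicate 2 of the 2 parts was nearly equal.

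The difference between the parts was then set against that in WT and in diapaused blastocysts, by a test of the difference of differences. These comparisons share no library with each other except the mTORi ones. edgeR called 0 of 102 for mTORi against WT (0.0%, 14 at an unadjusted p under 0.05, 1 called by DESeq2, 0.98%) and 0 of 102 for mTORi against diapaused (0.0%, 8 at an unadjusted p under 0.05, 1 called by DESeq2, 0.98%). The part difference itself was called for 11 of 102 in WT (10.8%) and 19 of 102 in diapaused blastocysts (18.6%). Diapaused libraries had 9049 to 20051 counts, all above the 2184 to 4386 of mTORi ones. WT libraries had 1744 to 8366 counts, with polar WT replicate 1 below every mTORi library, and WT had fewer libraries per part. The treatments thus differed in depth or in number of libraries. That these numbers are above the 5 of mTORi is therefore no test of a smaller difference.

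miR-351-5p came closest. In mural fragments it was at 17603 and 16384 CPM in WT, 12655, 11580 and 10726 in diapaused and 1671, 1373 and 2302 in mTORi libraries. In polar fragments it was at 0 and 2883 CPM in WT, 1924 to 3264 in diapaused and 1781 to 2961 in mTORi libraries. Its mural level was thus lower in every mTORi library than in every WT or diapaused one, and its polar levels overlapped. The part difference was 0.37 (SE 0.59) in mTORi beside -3.24 (SE 0.64) in WT and -2.21 (SE 0.46) in diapaused blastocysts.

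Against WT the difference of part differences of miR-351-5p was 3.60 (SE 0.86, edgeR adjusted p = 0.0651), and against diapaused it was 2.58 (SE 0.74, adjusted p = 0.147). The first was called without polar mTORi replicate 3 (1 of 106, 0.943%), without polar WT replicate 2, with DESeq2's size factors, in DESeq2 and with the replicate number as a block. miR-503-5p of the same cluster was at 27729 and 28104 CPM in mural WT, 6678 to 13759 in mural diapaused and 1644 to 3580 in mural mTORi libraries. Its part difference was -3.68 (SE 0.90), -2.32 (SE 0.66) and -0.41 (SE 0.82), and that of mTORi against WT was not called (3.27, SE 1.22, adjusted p = 0.27).

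miR-322-5p kept a mural level of 15921 to 24003 CPM in mTORi beside 18417 and 21187 in WT and 22425 to 31005 in diapaused libraries. Its polar level was 2850 to 11842 CPM in mTORi, 1038 and 2059 in WT and 1606 to 4330 in diapaused libraries. Beside -1.57 (SE 0.44) in mTORi, the part difference was -3.08 (SE 0.44) in diapaused and -3.54 (SE 0.62) in WT blastocysts, a difference of 1.97 (SE 0.75, edgeR adjusted p = 0.27) from WT and 1.51 (SE 0.60, adjusted p = 0.354) from diapaused.

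miR-10b-5p was lower in polar fragments in all 3 treatments, with log2 differences of -1.21 (SE 0.34) in mTORi, -1.17 (SE 0.33) in diapaused and -2.12 (SE 0.44) in WT blastocysts. mTORi and diapaused blastocysts differed in this by -0.04 (SE 0.47), and mTORi and WT by 0.91 (SE 0.54, adjusted p = 0.517).

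miR-148b-3p had the second smallest p against WT, with a part difference of -1.46 (SE 0.63) in WT and 1.33 (SE 0.49) in mTORi (difference 2.79, SE 0.80, edgeR adjusted p = 0.137). miR-200b-3p followed, with -1.74 (SE 0.41) in WT and -0.13 (SE 0.32) in mTORi (1.61, SE 0.52, adjusted p = 0.213). Against diapaused the smallest p after miR-351-5p were those of miR-203-3p (4.16, SE 1.24, adjusted p = 0.147), which rests on polar mTORi replicate 3, and of miR-294-3p (0.69, SE 0.21, adjusted p = 0.147). miR-294-3p was at 136590 to 165488 CPM in mural and 72370 to 96690 in polar diapaused libraries, while mTORi libraries held 91553 to 113108 CPM in both parts.

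**Figure D5:**
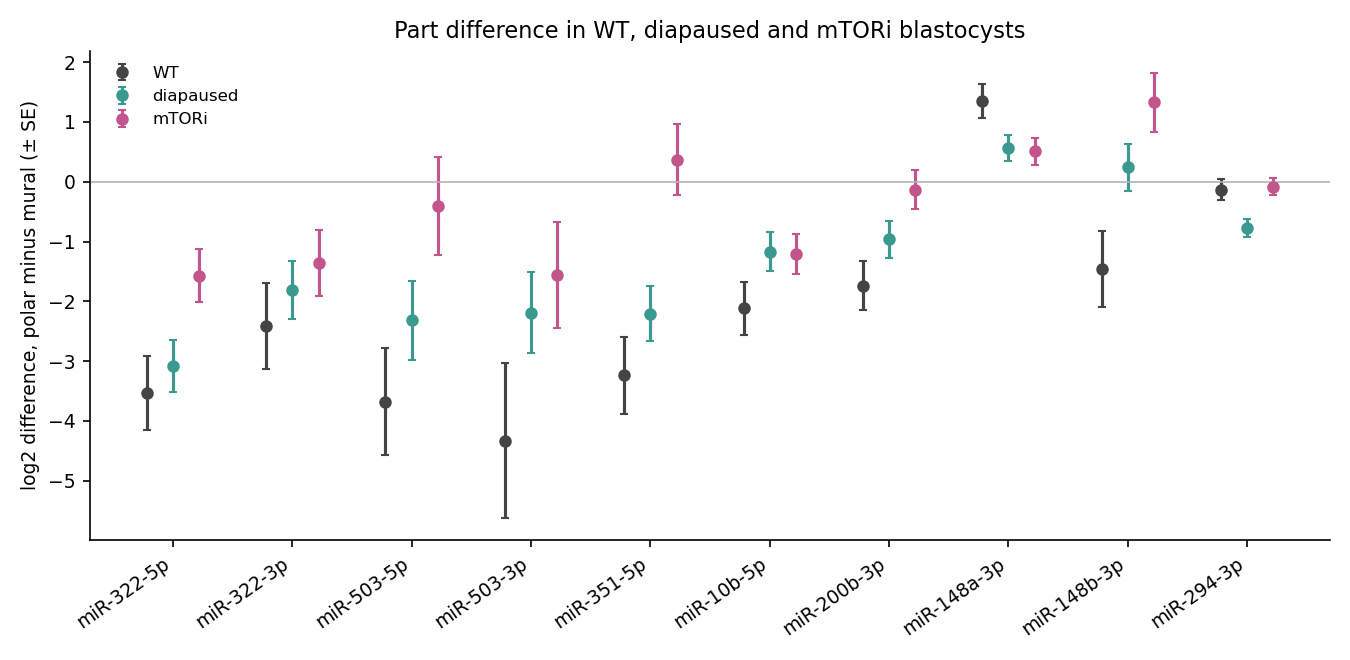
Fitted log2 difference between polar and mural fragments (vertical axis, ± SE of the edgeR fit) of 10 miRNAs in WT (2 libraries per part), diapaused (3) and mTORi (3) blastocysts. miR-351-5p is at 0.37 in mTORi beside -3.24 in WT and -2.21 in diapaused blastocysts. The main edgeR fit, with all 16 libraries, called no difference between treatments. That of miR-351-5p against WT was called by edgeR with RLE factors or the replicate block, and DESeq2 called it against WT and against diapaused.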

How the data were processed

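Small RNA libraries were made by ligation of adapters with molecular identifiers and 12 to 20 PCR cycles, without size selection, and read at 75 nt, per the labels' protocols. The deposited values are counts per mature miRNA name, whole numbers without normalization. The build is GRCm38, per the submitters' processing notes. Which aligner and counter were used, and whether identifiers were collapsed, is not given in the sources used here, so intervals cover counting error only. Hairpin positions came from the GRCm38 annotation.

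Counts were analysed with edgeR 4.0.16 and limma 3.58.1 in R 4.3.3. filterByExpr (minimum count 10, minimum total 15) kept 102 names, which hold 92.83% to 97.61% of each library. With TMM scaling, a two-sided quasi-likelihood model with 6 group means was fitted to all 16 libraries (10 residual degrees of freedom). p-values were adjusted by Benjamini-Hochberg over all tested miRNAs and called under 0.05. CPM are tested counts per 1000000 after TMM scaling. SE is the size of the log2 difference divided by the root of F. Where a group had no count, bounds on the fold use 3 counts over that group, and with 1 to 3 counts the count ratio has an exact 95% interval. The procedure was tested on simulated data.

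Named miRNAs were those called with or without polar mTORi replicate 3, the 8 with the smallest p in each direction among those of at least 1000 CPM, the 10 most abundant, all tested ones of the Dlk1-Dio3 and miR-322/miR-503 clusters, up to 4 members of each other list with at least 3 tested, and the 3 smallest p of each difference between treatments. Others were named for a share, a seed or a non-overlap after their values were seen. The comparison, the rule and all 29 lists were chosen with earlier results of these data known. Same-numbered polar and mural mTORi libraries deviated weakly together from their group means (correlations over miRNAs of 0.16, 0.11 and 0.18, against -0.13 to 0.01 for other pairs). The labels do not state a pairing, so the main fit treated the libraries as unpaired. A fit with the replicate number as a block was run as an alternative. Alternatives were RLE factors, library size, no filter, a filter of at least 10 counts in at least 3 libraries (115 names kept), DESeq2 1.42.0, robust dispersion, the replicate block, miR-203-3p left out, only the groups compared, and each library left out.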

Additional observations from a re-analysis of the deposited data

How the results depend on the processing

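The 5 calls between mTORi parts became 7 with RLE factors (4 higher and 3 lower), 4 with library size alone (3 and 1), 9 without a filter (7 and 2), 10 in DESeq2 (7 and 3), 3 with robust dispersion and 0 of 51 from the 6 mTORi libraries alone (8 at an unadjusted p under 0.05). Leaving out 1 library at a time gave 0 to 7 calls. The WT and diapaused libraries left out, and the next 4 fits, were added after seeing the data. Without polar mTORi replicate 3 there were 3 calls with RLE factors, 2 with library size, 6 in DESeq2 and 3 with the remaining mTORi libraries alone. The replicate block gave 5 calls: miR-203-3p was lost and miR-2137 gained, and no other call between mTORi parts changed. Over 30 fits miR-379-5p was called in 23, miR-10b-5p in 18, miR-322-5p and miR-152-3p in 17, miR-2137 in 16 and miR-203-3p in 14.

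For the part difference of mTORi against WT there were 0 to 1 calls with 1 library left out, 1 with RLE factors, in DESeq2 or with the replicate block (miR-351-5p each time), 6 without a filter, and without polar mTORi replicate 3 there were 3 with RLE factors, 3 with library size and 4 in DESeq2. Against diapaused there were 0 to 1 with 1 library left out, 1 without a filter, 1 in DESeq2, 1 from the groups compared and 2 in DESeq2 without polar mTORi replicate 3. The causes were not tested. Signs of small log2 differences turned. miR-292a-3p and miR-293-3p went to 0.04 with RLE factors and 0.03 in DESeq2. With 1 library left out the range was -0.29 to 0.10 for miR-292a-3p, -0.27 to 0.13 for miR-293-3p, -0.48 to 0.04 for miR-294-3p, -0.55 to 0.16 for miR-200b-3p, -0.18 to 3.21 for miR-205-5p, -0.09 to 1.30 for miR-290a-5p, -0.77 to 1.06 for miR-30a-5p, -1.07 to 0.21 for miR-30e-3p, -0.18 to 0.59 for miR-351-5p, -0.96 to 0.12 for miR-466d-3p, -1.19 to 0.36 for miR-466f-3p, -2.74 to 0.04 for miR-503-5p, -0.14 to 0.47 for miR-669c-5p, -0.50 to 0.82 for miR-871-3p and -0.28 to 1.30 for miR-880-3p.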

Other observations

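Counts in every mural and no polar mTORi library were found for 3 names. miR-28a-3p had 4, 3 and 1 counts, at least 1.95-fold higher in mural fragments (edgeR adjusted p = 0.0953). let-7f-5p had 4, 1 and 6 counts and miR-669a-3-3p 1, 2 and 1, both too low to be tested. miR-672-5p, X-linked, had 1, 7 and 3 polar and 1, 0 and 1 mural counts, a count ratio of 7.51 (exact 95% interval 1.64 to 69.7). This interval pools the counts and leaves out the spread between libraries. The fit, which includes it, did not call miR-672-5p (log2 2.82, SE 0.97, edgeR adjusted p = 0.0963). These names were chosen after their values were seen.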
